A study of Mus musculus with 12 samples.

Results

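The mitochondrial genome carries its own genes for part of the respiratory chain, and 10 of them are described here across mKO and WT retinal cells. They were chosen by name, with earlier results of these same comparisons in view, and make up 10 of the 38720 genes listed in each of the 2 deposited tables. The members are mt-Nd1, mt-Nd2, mt-Nd3, mt-Nd4, mt-Nd5 and mt-Nd6 of complex I, mt-Cytb of complex III, mt-Co1 and mt-Co2 of complex IV, and mt-Atp6 of complex V. Since the values of mt-Nd3 in the knockout led to its choice, and the other members were taken up with the same comparisons known, their differences between genotypes are given as descriptions without a test. In the reference annotation the mitochondrial genome holds 13 protein-coding genes, so that mt-Co3, mt-Atp8 and mt-Nd4l are the genes of the chain that are not members.

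RNA was sequenced from the retinas of P0 pups of the strain given as C57/BL6. The mKO pups carried Math5Cre, a Cre recombinase in the locus of Math5, a gene switched on in RGC progenitors, together with 2 floxed Ezh2 alleles (Ezh2f/f); the other pups are given as wild type (WT), without a floxed allele or Cre in their label, although the study's methods name floxed littermates as its usual controls. Cells with the surface protein CD90 (Thy-1) were taken with magnetic beads as RGCs, and the cells left over are called non-RGCs here. Each genotype and fraction had 3 libraries, 12 in all, made from separate RNA extractions and selected for poly-A RNA. According to the study's text, Math5-Cre acts in only part of the RGCs and also reaches some cells of other retinal lineages, so that both fractions of an mKO pup mix cells with and without the deletion.

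Mitochondria keep a small circular genome in many copies per cell, which is read from both strands into long transcripts that are cut into messengers, ribosomal RNAs and transfer RNAs. Its proteins sit in the cores of complexes I, III, IV and V, where electrons from food pass to oxygen and the proton gradient drives ATP synthesis, and every other subunit of these complexes is made from nuclear genes. RGCs are projection neurons with long axons, and damage to mitochondrially encoded subunits of complex I is known as a cause of optic neuropathy. Pieces of mitochondrial DNA have also been copied into nuclear chromosomes during evolution, and reads from such pieces and from the mitochondrion cannot be told apart where the letters are the same.

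The members differ in how far their sequence also occurs in the nucleus, so the sequences come first. The opening 75 bases of a gene that has an identical copy in the nucleus (mt-Co2), of one whose copy differs by a single letter (mt-Nd3, with the differing base in capitals) and of one with no copy found (mt-Cytb) are shown with their copies, all from the transcripts of GENCODE M21 on GRCm38. The gene mt-Co2 starts at chrM:7013-7087 (plus strand), its copy Gm28661 at chr1:24615491-24615565 (minus strand), mt-Nd3 at chrM:9459-9533 (plus strand), its copy Gm28438 at chr1:24613045-24613119 (minus strand) and mt-Cytb at chrM:14145-14219 (plus strand).
mt-Co2: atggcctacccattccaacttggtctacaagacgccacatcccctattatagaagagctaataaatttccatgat
Gm28661: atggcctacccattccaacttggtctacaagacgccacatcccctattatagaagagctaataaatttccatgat
mt-Nd3: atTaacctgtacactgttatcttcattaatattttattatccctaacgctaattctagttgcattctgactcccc
Gm28438: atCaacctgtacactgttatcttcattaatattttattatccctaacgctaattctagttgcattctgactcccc
mt-Cytb: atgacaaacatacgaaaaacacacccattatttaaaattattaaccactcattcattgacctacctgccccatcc

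The copies of mt-Co2 and mt-Nd3 belong to a run of 7 pseudogenes on chromosome 1 from 24611535 to 24616197, all on the minus strand. In the order of the mitochondrial genome they are Gm29216 (the end of mt-Co1), Gm28661 (mt-Co2), Gm10925 (mt-Atp6), Gm28437 (mt-Co3), Gm28438 (mt-Nd3), Gm10222 (mt-Nd4l) and Gm28439 (the start of mt-Nd4). The run spans 4663 bases, against 4662 bases for the matching stretch of the mitochondrial genome, and 5 of its 7 pseudogenes had no differing base over their aligned length. Of the other copies, Gm28438 differs from mt-Nd3 by T3C, counted from the first base of mt-Nd3 (chrM:9461), where the former letter is that of mt-Nd3 and the latter that of the copy, and Gm29216 differs from mt-Co1 at 6 of 492 bases.

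A read of 75 bases could not be placed in the mitochondrion alone over nearly the whole of 3 members. An identical nuclear transcript was found for 607 of the 610 windows of 75 bases in mt-Co2, for 604 of 607 in mt-Atp6 and for 268 of 274 in mt-Nd3. The share was 61.5% of windows in mt-Nd4, 39.8% in mt-Co1, 5.71% in mt-Nd2 and 1.66% in mt-Nd5, and no window of mt-Nd1, mt-Nd6 or mt-Cytb had such a copy. The study's methods name both a 50-base single-read and a 75-cycle flowcell, and 75 bases were used for windows and start positions here. With windows of 50 bases the share was 62.2% in mt-Nd4, 51.1% in mt-Co1, 8.19% in mt-Nd2 and 7.61% in mt-Nd5, at least 98.0% in mt-Co2, mt-Atp6 and mt-Nd3, and 0 in the same 3 genes as before. Of the 6 windows of mt-Nd3 without a copy, 3 hold the differing base and 3 reach past the annotated end of the copy. The nuclear sequence past that end was not examined. Windows of the latter kind numbered 3 each in mt-Co2, mt-Atp6 and mt-Nd4l and 1 in mt-Co3, genes with 0 reads in every library. How reads that match several places were counted is not given in the sources used here.

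The gene mt-Co2, the copper-binding subunit of cytochrome c oxidase that receives electrons from cytochrome c, had 0 reads in all 12 libraries, and so had mt-Atp6, the subunit of ATP synthase that forms the proton channel. The 2 genes lie side by side in the middle of the mitochondrial genome, from 7013 to 7696 and from 7927 to 8607. A count of 0 allows for up to 3 reads per library by counting error, but a gene that most cells use at a high level is listed at 0 here and its level is not known. The neighbours that are not members, mt-Atp8, mt-Co3 and mt-Nd4l, also had 0 reads in all 12 libraries, so that the protein-coding genes from 7013 to 10173 were at 0 but for mt-Nd3. The windows of mt-Co3 and mt-Nd4l had an identical copy in 99.9% and 98.7% of cases. For mt-Atp8 no copy is annotated, since it falls into the 233 bases between Gm10925 and Gm28661, a gap as long as the matching mitochondrial stretch of 233 bases, whose sequence was not used here.

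Reads of mt-Nd3, a small subunit of complex I, came to 1, 2 and 0 in the mKO RGC libraries and to 7, 6 and 5 in the WT RGC libraries. In non-RGCs they came to 0, 0 and 0 in the mKO libraries and to 5, 7 and 5 in the WT libraries. The mKO libraries thus held fewer reads than any WT library in either fraction, on a scale of single reads. This was so for 11.4% of all genes tested in RGCs and for 14.4% in non-RGCs. Those shares cover genes with a mean of at least 10, which mt-Nd3 did not reach, and its share among genes with as few reads was not counted. Over the group, 3 reads among 37829892 in mKO RGCs stood against 18 among 34595880 in WT RGCs, and 0 among 30256109 in mKO non-RGCs against 17 among 34691123 in WT non-RGCs. Among the windows wholly within the gene, only the 6 named above set mt-Nd3 apart from the annotated transcript of its copy. Reads that reach beyond the ends of the gene were not examined. The level of the messenger of mt-Nd3 as a whole is not known from these reads. In 3 of the 6 windows a read is placed by the letter at base 3, which is taken from the reference genome and was not checked in the mKO or WT mice.

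**Figure D1:**
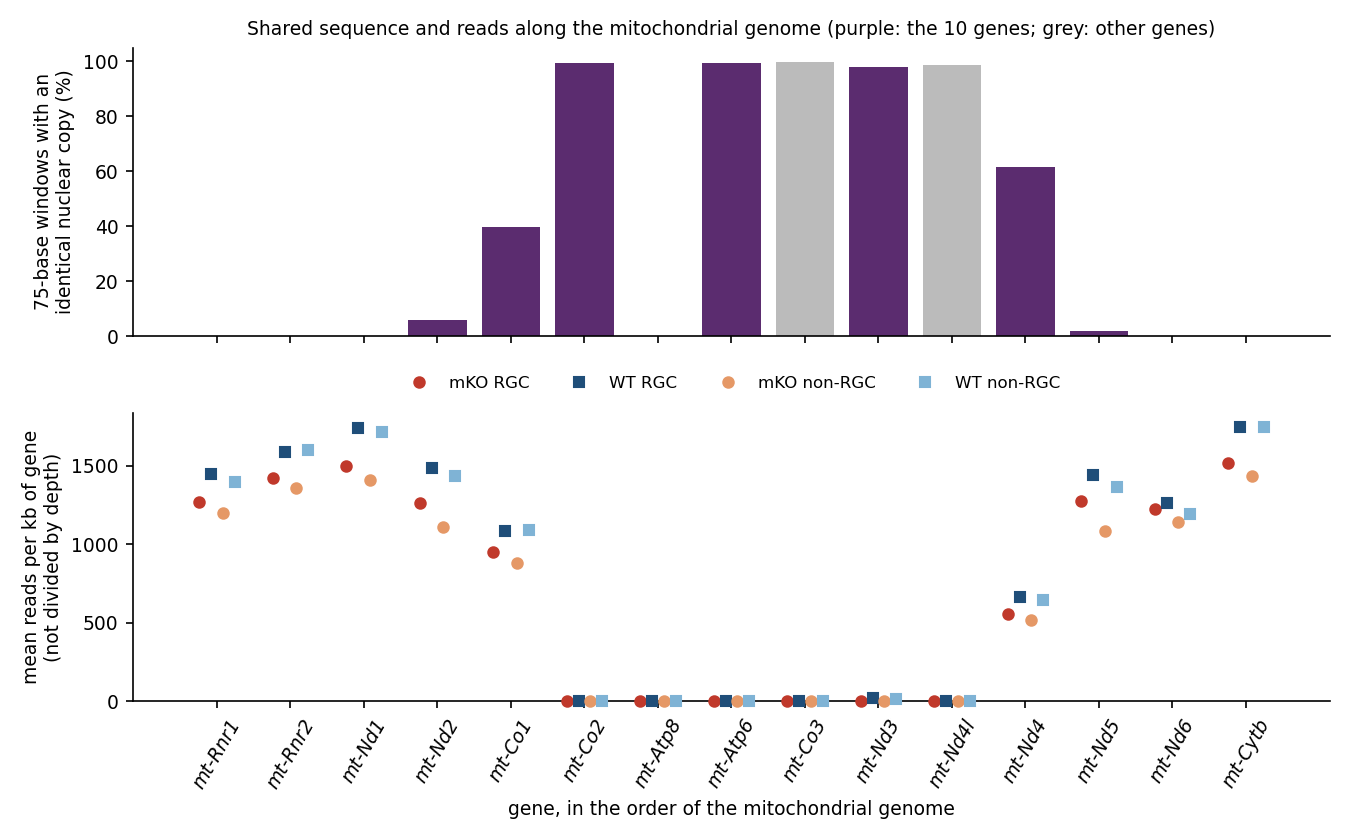
Genes of the mitochondrial genome in their order, with the percent of 75-base windows that have an identical nuclear transcript (upper bars, purple for the 10 members and grey for other genes) and the mean reads per kb in each group of 3 libraries (lower points, not divided by depth). The genes with 97.8% or more of such windows are at or near 0 reads, as is mt-Atp8, while mt-Nd4 and mt-Co1, with 61.5% and 39.8%, lie below the other genes with reads.

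The other 7 members passed the filter of a mean of 10 normalised reads in at least one group, and the values that follow are of these 7 of 10 members. Levels per length, in RPKM (reads divided by the kb of gene and by the library's reads on genes), were highest for mt-Cytb, which passes electrons within complex III, at 120.3 ± 2.32 in mKO RGCs and 152.0 ± 8.20 in WT RGCs (SD, n = 3). They were lowest for mt-Nd4, a proton-pumping subunit of complex I, at 43.99 ± 1.21 and 57.5 ± 2.61 in the same groups. In WT RGCs the order of the levels was mt-Cytb, mt-Nd1, mt-Nd2, mt-Nd5, mt-Nd6, mt-Co1 and mt-Nd4. The ranges over the 3 WT RGC libraries overlapped between mt-Cytb and mt-Nd1 and between mt-Nd2 and mt-Nd5, and did not overlap between the other neighbours in this order. In mKO RGCs mt-Nd5 came before mt-Nd2, and mt-Nd5, mt-Nd2 and mt-Nd6 each overlapped with the next of them.

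In non-RGCs the order began with mt-Cytb and mt-Nd1 and ended with mt-Co1 and mt-Nd4 in both genotypes. The level of mt-Cytb was 148.9 ± 36.9 in mKO and 150.9 ± 9.18 in WT non-RGCs, and that of mt-Nd4 was 53.5 ± 13.1 and 55.8 ± 4.06 (SD, n = 3). Neighbours in the order overlapped in the non-RGC groups, apart from mt-Co1 and mt-Nd4. The tables of the 2 fractions were normalised separately, so levels in RGCs and non-RGCs stand side by side without a test.

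The order of the levels depended on the scale. The level of the highest of the 7 members was 2.72 ± 0.0654 times that of the lowest per base of gene (mean ± SD over 12 libraries), and 1.32 ± 0.132 times when reads were divided by the windows without a nuclear copy, a scale chosen after seeing the data. Over the 13 protein-coding genes, the mean reads followed the number of windows without a copy with a Spearman's rho of 0.94, and the gene length with 0.80; these genes share their libraries, and the coefficient is a description.

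The reads of the 7 members, apart from mt-Nd4, filled a large share of the start positions they could come from. The deposited names say that duplicates were removed, and where single-end reads that begin at the same base and strand count once, a gene can hold 1 read per start position and strand. Per possible start position, the reads of mt-Cytb ran from 0.705 to 0.719 in mKO RGCs and from 0.799 to 0.835 in WT RGCs. For mt-Nd1, the core subunit of complex I near the quinone site, they ran from 0.689 to 0.702 and from 0.802 to 0.811. Over the libraries of all groups they ran from 0.389 to 0.525 for mt-Co1, the catalytic core of cytochrome c oxidase, and from 0.227 to 0.322 for mt-Nd4. On the other scale, per start position without a nuclear copy, the values of mt-Co1 reached 0.960, the highest of the 7 members in any library. For mt-Nd5 in mKO non-RGC library C they were 0.436 on that scale, the lowest. No molecular identifiers are named in the sources used here, so identical molecules and PCR copies could not be separated.

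By the median ratio, the reads of the 7 members grew less with depth than those of other genes in each group. Libraries carry no replicate number, and within a group library A is the deepest and library C the shallowest. The mKO non-RGC library A had 1.80 times the reads on genes of library C (12828281 against 7139633), and the median ratio of reads, taken over 12405 genes whose mean in that group reached 50, was also 1.80. The ratio was 1.09 for mt-Nd1 and at most 1.46, for mt-Nd5, with a median of 1.12 over the 7 members. In WT non-RGCs, where library A was 1.10 times as deep as library C, the ratio ran from 0.842 for mt-Nd5 to 0.992 for mt-Co1, so that the deeper library held fewer reads of every one of the 7 members. In RGCs the median ratio of the members was 1.01 in mKO and 1.06 in WT libraries, at depth ratios of 1.05 and 1.16. Over the genes whose group mean reached 50, the median was 1.07 and 1.12 in these groups, and 1.12 in WT non-RGCs. The ratio of mt-Nd5 in WT RGCs, 1.14, lay above that median. A small change with depth was not confined to the members. The nuclear gene Eef2, described further below, ran only from 0.587 to 0.622 reads per start position over the mKO non-RGC libraries.

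**Figure D2:**
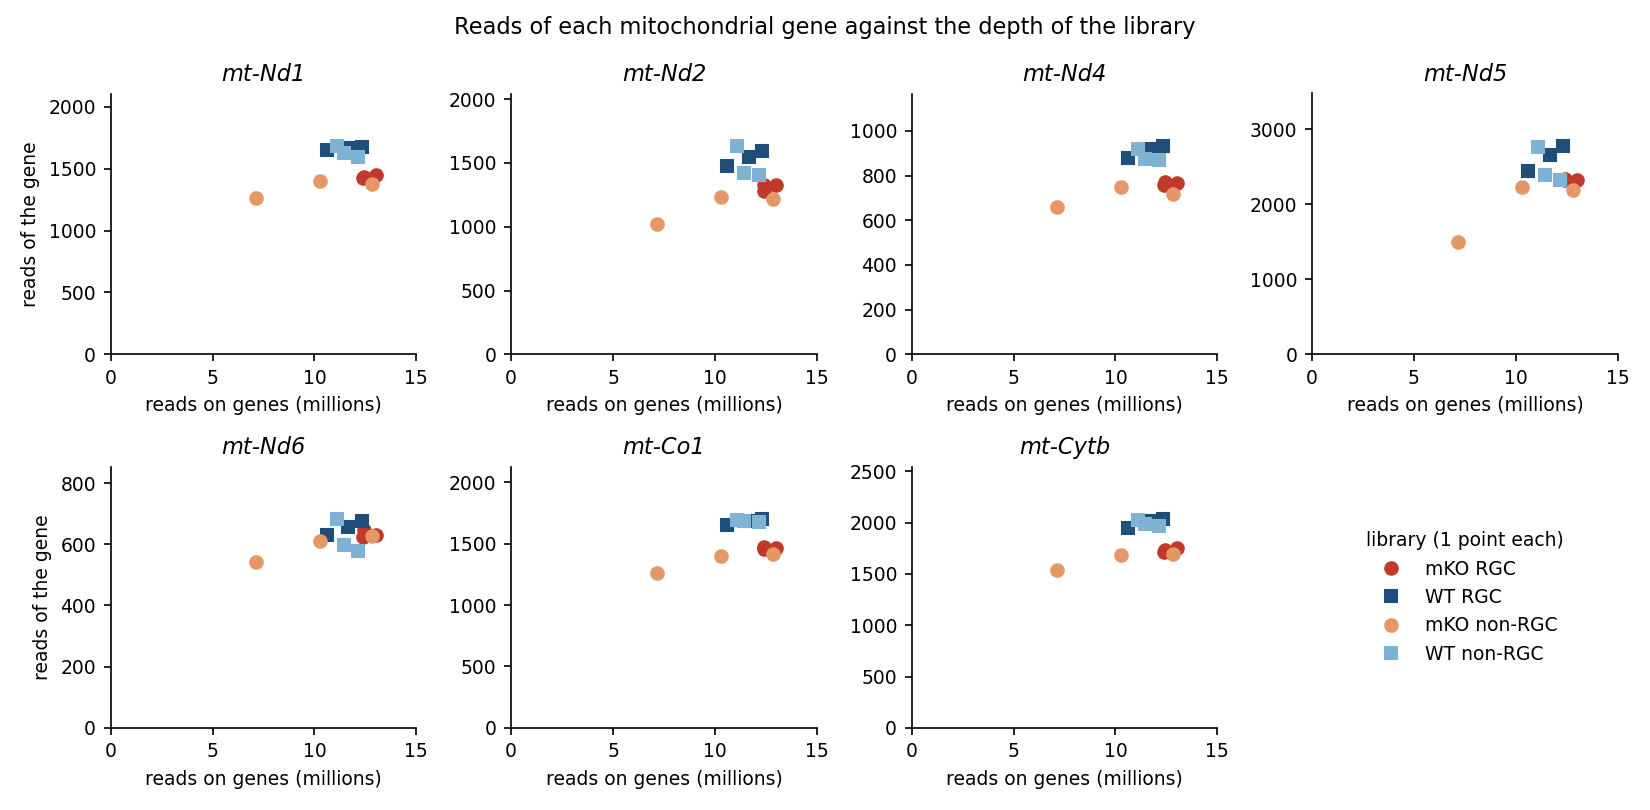
Reads of each of the 7 members (vertical axes, from 0) against the reads on genes of the library (horizontal axes, from 0), with 1 point per library coloured by group. The mKO non-RGC library with 7139633 reads on genes is the lowest point of each panel, by less than its depth would give, and within each fraction the mKO points lie below the WT points for 6 of the 7 members.

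The members had fewer reads in mKO RGCs than in WT RGCs as counted. Reads of mt-Nd1 came to 1448, 1436 and 1421 in the mKO RGC libraries and to 1672, 1664 and 1654 in the WT RGC libraries. Those of mt-Nd2 came to 1326, 1328 and 1279 in mKO and to 1591, 1545 and 1477 in WT RGCs. Within a group these complex I genes varied by little, and no mKO library reached the lowest WT library.

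The same held for mt-Nd4, with 765, 771 and 756 reads in mKO and 934, 920 and 879 in WT RGCs. It also held for mt-Nd5, the largest of the mitochondrial subunits of complex I, with 2321, 2335 and 2331 reads in mKO and 2783, 2656 and 2439 in WT RGCs. The exception was mt-Nd6, with 631, 645 and 624 reads in mKO and 677, 656 and 629 in WT RGCs, where the groups overlapped. This gene is the only member on the light strand (13552 to 14070, minus strand), and its end overlaps that of mt-Nd5 by 14 bases. A strand setting for the counting is not given in the sources used here, so reads of mt-Nd6 and reads from the opposite strand of the same stretch cannot be told apart.

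In the other complexes, mt-Cytb had 1752, 1735 and 1718 reads in mKO and 2034, 2017 and 1947 in WT RGCs. The reads of mt-Co1 came to 1467, 1472 and 1458 in mKO and to 1699, 1681 and 1648 in WT RGCs. No library of one genotype reached the other for either gene. The mean reads fell by 16.1% for mt-Nd4 at one end and fell by 3.16% for mt-Nd6 at the other. For 6 of the 7 members no mKO library reached the lowest WT library, which was so for 11.4% of all 16085 genes tested, although the mKO RGC libraries were the deeper ones.

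Dividing by the size factors of the libraries, which correct for depth, widened the gap in RGCs, since those of the mKO libraries (1.06 to 1.15) were larger than those of the WT libraries (0.857 to 0.987). Normalised reads of mt-Nd1 came to 1263, 1324 and 1337 in mKO and to 1695, 1806 and 1930 in WT RGCs, and those of mt-Cytb to 1529, 1600 and 1617 in mKO and to 2062, 2190 and 2272 in WT RGCs. In each of these groups the deepest library had the lowest normalised value. For all 7 members the mKO RGC libraries were all below the lowest WT RGC library after normalisation, as they were for 28.2% of all 16085 genes tested. On the log2(normalised reads + 1) scale, the differences of mKO minus WT RGCs ran from -0.51 for mt-Nd4 (SE 0.0617, a fold of 0.704) to -0.30 for mt-Nd6 (SE 0.0651, a fold of 0.813). Their median was -0.46, against -0.0024 over all 16085 genes tested. Division by the reads on genes (CPM) in place of size factors moved the median of all genes by 0.12 and that of the members to -0.34.

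In non-RGCs the members also had fewer reads in mKO than in WT libraries as counted, and after normalisation the groups overlapped. Reads of mt-Nd1 came to 1379, 1398 and 1267 in the mKO and to 1598, 1628 and 1686 in the WT libraries, and those of mt-Nd2 to 1214, 1229 and 1018 in the mKO and to 1403, 1423 and 1635 in the WT libraries. Reads of mt-Nd4 came to 718, 750 and 658 in mKO and to 871, 873 and 919 in WT non-RGCs. For these 3 complex I genes the groups stayed apart.

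The largest fall within a group was that of mt-Nd5, with 2195, 2227 and 1500 reads in mKO non-RGCs, against 2325, 2386 and 2760 in WT non-RGCs. Its low value belongs to mKO library C, the shallowest of the 12 libraries. The gene mt-Nd6 again overlapped, with 628, 610 and 541 reads in mKO and 577, 597 and 682 in WT non-RGCs.

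Reads of mt-Cytb came to 1694, 1681 and 1539 in mKO and to 1965, 1988 and 2026 in WT non-RGCs, and those of mt-Co1 to 1416, 1403 and 1261 in mKO and to 1678, 1688 and 1691 in WT non-RGCs. Neither gene overlapped between the genotypes. The mean reads fell by 22.4% for mt-Nd2 at one end and fell by 4.15% for mt-Nd6 at the other. For 6 of the 7 members no mKO library reached the lowest WT library, which was so for 14.4% of all 15326 genes tested. These reads are not corrected for depth, and mKO library C is the shallowest.

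After normalisation the mKO non-RGC libraries spread widely, with 1063, 1341 and 1789 normalised reads of mt-Nd1 and 1305, 1612 and 2173 of mt-Cytb in libraries A, B and C. The WT non-RGC libraries held 1442, 1575 and 1758 normalised reads of mt-Nd1 and 1773, 1924 and 2113 of mt-Cytb. The groups overlapped for all 7 members, while the mKO libraries were all below the lowest WT library for 19.2% of all 15326 genes tested. The log2 differences of mKO minus WT ran from -0.30 for mt-Nd2 (SE 0.177) to 0.0054 for mt-Nd6 (SE 0.194), with a median of -0.25 against -0.026 over all genes tested. Without mKO library C, whose size factor of 0.708 raises its normalised values, the median was -0.41 and all 7 members were lower, and without mKO library A it was -0.073. Without WT library A it was -0.30, and without WT library C -0.16. With CPM the median of all genes moved by 0.17 and that of the members was -0.074. The sign of mt-Nd6 depended on the setting, with 0.18 by CPM, -0.0044 with median centring and -0.54 with the GC trend removed.

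**Figure D3:**
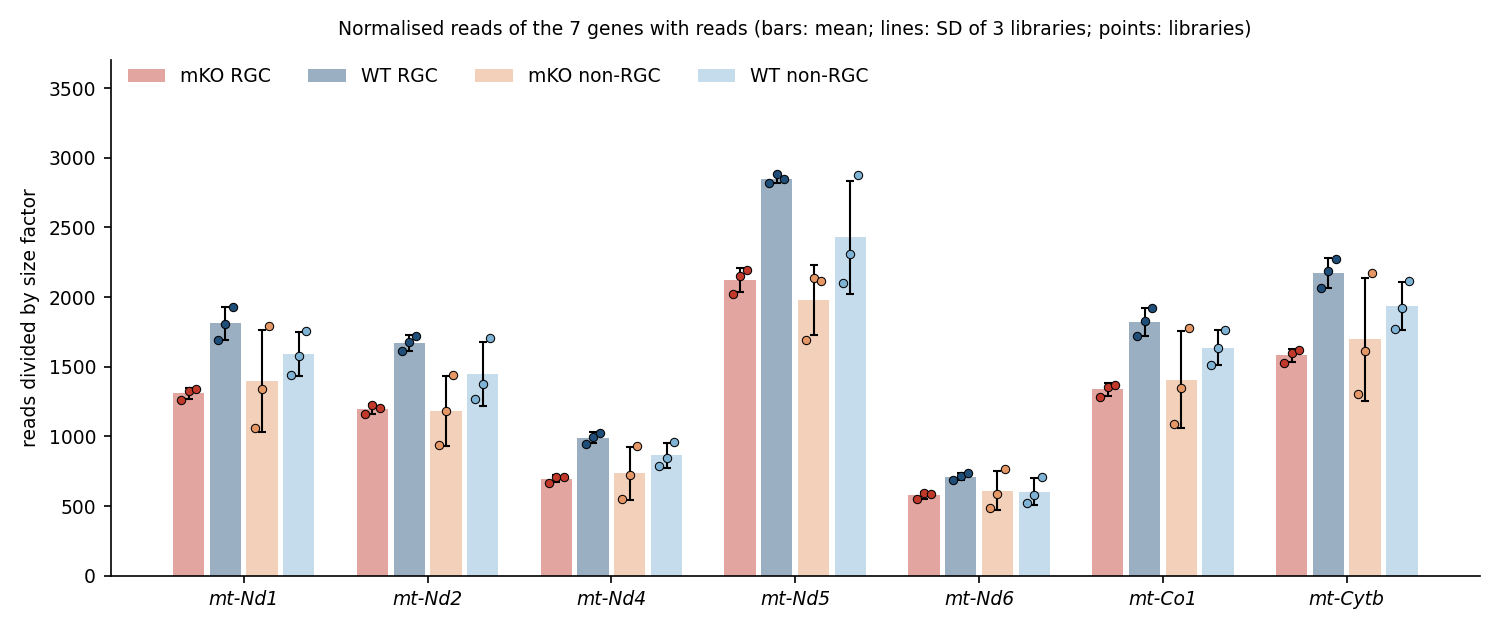
Reads divided by the size factor of the library for the 7 members with reads, by group (bars, mean; lines, SD of 3 libraries; points, single libraries). The points of mKO RGCs lie below those of WT RGCs for every gene, and the points of mKO and WT non-RGCs overlap for every gene.

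The differences in RGCs and in non-RGCs were set side by side in 1 fit over both tables. The RGC difference minus the non-RGC difference ran from -0.30 for mt-Nd6 (SE 0.219) to -0.14 for mt-Nd5 (SE 0.167). Each table was normalised by itself, so this sets a difference within one table against a difference within the other. Over all genes, limma called 16 of 16517 for such a difference, or 0.0969%.

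The members are set here beside nuclear genes of like base composition, and beside nuclear genes with many reads per start position. Their GC content ran from 34.1% to 39.9%. In RGCs, 394 nuclear protein-coding genes in this range were tested, of which limma called 277 higher and 4 lower in mKO mice at an adjusted p-value under 0.05, with a median log2 difference of 0.63. In non-RGCs the median of 368 such genes was 0.38, with 76 higher and 2 lower. The members lay on the other side of 0 in RGCs, all 7 of them. With the trend of GC content removed from each library, the median difference of the 7 members was -1.08 in RGCs and -0.60 in non-RGCs.

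By contrast, 72 nuclear protein-coding genes held at least 0.4 reads per start position, and 70 of them were called lower and 1 higher in mKO RGCs. Their median log2 difference was -0.61 in RGCs and -0.36 in non-RGCs, where 12 were called lower. As counted, the mKO libraries were all below the lowest WT library for 67 of the 72 in RGCs and for 60 in non-RGCs. At the top of this set, Eef2, an elongation factor of translation, held 0.614 to 0.631 reads per start position in mKO RGCs and 0.795 to 0.808 in WT RGCs, and 0.587 to 0.622 in mKO and 0.794 to 0.822 in WT non-RGCs. Both sets of nuclear genes were chosen after seeing the data, and no test of the members against them was run.

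**Figure D4:**
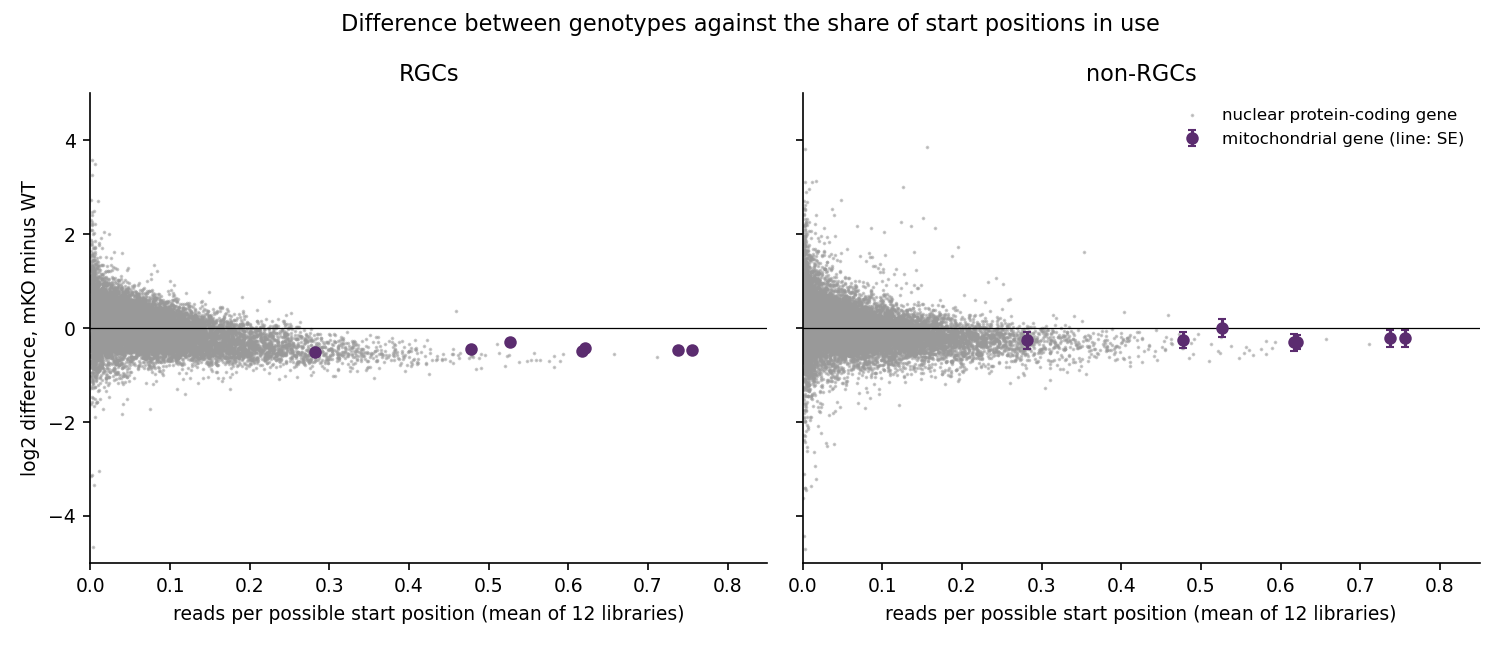
Log2 difference of mKO minus WT (vertical axis) against the mean reads per possible start position over 12 libraries (horizontal axis) in RGCs and non-RGCs, for 12970 nuclear protein-coding genes (grey) and the 7 members (purple, lines for SE). Apart from mt-Nd4, the members lie at the right, among the few nuclear genes with as many reads per position, most of which are below 0. The gene mt-Nd4, at 0.227 to 0.322 reads per position in single libraries, lies further left.

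With 1 read per start position and strand, the highest normalised value that a member can reach is lower in a library with a larger size factor. Where the reads were turned back into molecules by assuming that each molecule falls on a random start position, the median log2 difference of the 7 members in RGCs was -0.56 with all start positions and -0.97 with the positions without a nuclear copy. In non-RGCs the values were -0.49 and -0.76. In RGCs the difference of mt-Nd6 was -0.32 and -0.35 on these 2 scales, and that of mt-Cytb -0.72 and -0.97. The latter scale counts only windows wholly within the gene, while all reads of the gene were kept. It therefore holds fewer positions also for mt-Cytb and mt-Nd6, which have no copy. For these genes the step between the scales removes no copied sequence. Reads as counted, with no correction for depth, gave medians of -0.20 and -0.31. The 7 members were lower in mKO RGCs with each of these settings, and the part of the cap in the difference was not tested.

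The ribosomal RNAs of the mitochondrion, which are not members, were also lower in mKO RGCs. The gene mt-Rnr1, the RNA of the small ribosomal subunit, had 1185 to 1247 reads in mKO and 1311 to 1420 in WT RGCs. It fell by 0.44 on the log2 scale after normalisation (SE 0.0627, adjusted p = 0.00226, limma). The RNA of the large subunit, mt-Rnr2, had 2211 to 2271 reads in mKO and 2316 to 2621 in WT RGCs and fell by 0.41 (SE 0.0512, adjusted p = 0.00144, limma). Per possible start position, mt-Rnr1 held 0.576 to 0.606 reads in mKO and 0.637 to 0.690 in WT RGCs. For mt-Rnr2 the values were 0.668 to 0.686 and 0.699 to 0.791. The cap on start positions thus bears on these genes as on the members, and its part in their differences was not tested. Limma called 21.2% of the 16085 genes lower and 16.3% higher in mKO RGCs (2622 higher and 3405 lower, against 3857 and 2238 with CPM). In non-RGCs the log2 differences were -0.16 for mt-Rnr1 (adjusted p = 0.641, limma) and -0.17 for mt-Rnr2 (adjusted p = 0.602, limma), and the differences between the fractions had an adjusted p = 0.682 and an adjusted p = 0.708.

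Of the 22 transfer RNA genes, 12 had 0 reads and 2 a mean of at least 10. Reads of mt-Tc, the transfer RNA for cysteine, ran from 22 to 28 in mKO and from 6 to 13 in WT RGCs (log2 difference 1.00, SE 0.333, adjusted p = 0.0513, limma). In non-RGCs they ran from 19 to 24 in mKO and from 4 to 22 in WT libraries (1.14, SE 0.571, adjusted p = 0.211, limma). Without WT non-RGC library C that difference was 1.75 and passed (adjusted p = 0.0481, limma, the lowest over the alternatives, which reached 0.503). Those of mt-Tp, the transfer RNA for proline, ran from 39 to 44 in mKO and from 39 to 49 in WT RGCs (-0.30, SE 0.181, adjusted p = 0.234, limma) and did not pass in non-RGCs either (0.19, adjusted p = 0.698, limma). Thus mt-Tc had a difference of the opposite sign to the members, without passing the threshold in either fraction as fitted. In RGCs it passed with CPM (1.12, adjusted p = 0.0335, limma), and with the GC trend removed it was 0.31 (adjusted p = 0.581, limma), the ends of the range over the alternatives.

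Few reads were placed on the copies themselves. Of the 7 pseudogenes on chromosome 1, only Gm10222 has a row under its symbol. This copy had 0, 3 and 1 reads in mKO RGC libraries A, B and C and 1 read in each mKO non-RGC library. In every WT library of either fraction it had 0 reads. These are single reads, below the filter, and the difference was not tested. On chromosome 2, Gm13340, a copy of mt-Co1, had 6 to 18 reads in any library, and Gm13341, a copy of mt-Co2, had 10 to 15 reads in mKO and 3 to 6 in WT RGCs (log2 difference 1.07, SE 0.336, adjusted p = 0.0426, limma), a call that was lost without any of the mKO libraries, without WT library A or without WT library C (adjusted p up to 0.346 over all alternatives). A further copy, Gm10221, had 1 to 5 reads per library. These rows share sequence with the mitochondrion and are uncertain.

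The nuclear-encoded partners of the members were counted on lists of the respiratory chain. In RGCs, 59 of 76 subunits were lower and 2 higher in mKO mice, with a median log2 difference of -0.43. By complex, 26 of 36 were lower and 2 higher in complex I, 4 of 4 lower in complex II, 7 of 10 in complex III, 10 of 11 in complex IV and 12 of 15 in complex V, against the background of 21.2% lower. That background covers tested genes of all levels, and the subunits were not set against genes with like numbers of reads. Complex II, which has no mitochondrially encoded subunit, had a median of -0.32, and complex IV, the home of mt-Co1 and mt-Co2, one of -0.53.

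The largest falls in complex IV were those of Cox5a (-0.93, SE 0.0809, adjusted p = 0.000651), Cox8a (-0.84) and Cox6a1 (-0.79), all small subunits around the mitochondrially encoded core. In complex I they were Ndufs7 (-0.75), which carries an iron-sulphur cluster, Ndufs5 (-0.64) and Ndufb6 (-0.62), while Ndufb2 (0.50) and Ndufab1 (0.43) rose. In complex III they were Uqcrq (-0.68), Cyc1 (-0.63), the cytochrome c1 that works beside mt-Cytb, and Uqcrc1 (-0.57). In complex V they were Atp5d (-0.78), Atp5g2 (-0.75) and Atp5g3 (-0.59), of which the last 2 make the ring that turns against mt-Atp6, and in complex II Sdhc (-0.45), Sdhb (-0.35) and Sdhd (-0.30). With the GC trend removed, 49 subunits were lower and 0 higher, and the calls of Ndufb2, Ndufab1, Atp5g2, Cyc1 and Sdhb were lost. Without single mKO RGC libraries or without WT RGC library B the higher subunits numbered 0 or 1, and the call of Sdhd was lost without any mKO RGC library.

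In non-RGCs limma called 0 of the 76 subunits in either direction, with 2 higher and 2 lower at an unadjusted p under 0.05, against a background of 6.43% lower and 4.18% higher among 15326 genes (641 higher and 985 lower, against 1346 and 448 with CPM). Without mKO non-RGC library C, 8 were called lower. Their median was -0.11, and none of the 76 was called for a difference between the fractions (0 higher and 3 lower at an unadjusted p under 0.05, limma).

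Genes that copy, transcribe and process mitochondrial DNA and RNA were called in both directions in RGCs, with 13 of 41 tested higher and 6 lower in mKO mice, or 31.7% and 14.6%, against 16.3% higher and 21.2% lower over all genes. Of those for transcription, Mterfd1 (0.52), Mterfd3 (0.48) and Tfam (0.30), which packs the mitochondrial genome and starts its transcription, rose, and Polrmt (-0.49), the mitochondrial RNA polymerase, fell. For RNA processing and stability, Fastkd2 (0.77), Mtpap (0.68), which adds poly-A tails to mitochondrial messengers, and Fastkd5 (0.65) rose most of 6, and Fastk (-0.51), Tbrg4 (-0.48) and Hsd17b10 (-0.45) fell most of 4. Polg2 (0.38), the accessory subunit of the mitochondrial DNA polymerase, was the 1 of 8 replication genes that rose. Of the regulators, Ppargc1a (0.70), Gabpa (0.44) and Gabpb1 (0.25) rose and Esrra (-0.49) fell. These counts leaned on single libraries and on base composition: without mKO RGC library A, B or C the list had 3, 4 and 5 higher genes, without WT RGC library A or B 7, and with the GC trend removed 4 higher and 0 lower, where the difference of Polrmt turned to 0.039. Among the genes named here, the calls of Tfam, Mterfd1, Mterfd3, Fastkd5, Hsd17b10, Polg2, Ppargc1a, Gabpa and Gabpb1 were lost with at least 1 mKO RGC library left out, and those of Polrmt, Fastkd2, Mtpap, Fastk, Tbrg4 and Esrra held without any single library.

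In non-RGCs, 7 of 41 were higher and 3 lower in mKO mice, or 17.1% and 7.32%, against 4.18% higher and 6.43% lower over all genes. With CPM, 13 were higher and 1 lower, and the calls of Polg and Ppargc1b were lost. Tefm (0.93), Mterfd3 (0.79) and Mterfd1 (0.64) rose and Polrmt (-0.70) fell among the genes of transcription. Fastkd5 (0.97), Fastkd2 (0.70) and Pnpt1 (0.66) rose most among those of processing, Polg (-0.48), the catalytic subunit of the mitochondrial DNA polymerase, fell, and Ppargc1b (-1.33) fell among the regulators. Without mKO non-RGC library B or WT non-RGC library B none of these 41 genes was called, without mKO non-RGC library A 3 were higher, without WT non-RGC library A 2 were higher and 0 lower, and with the GC trend removed 0 were called in either direction.

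The genes most like the 7 members in profile were Tubb5 (a beta-tubulin), Pgrmc1, Fxyd6, Calm2 (a calmodulin) and Hnrnpab. Their Pearson's r with the mean log2 value of the members was 0.987 to 0.993 over 12 libraries, after the mean of each fraction was taken off, among 11739 genes whose mean reached 50 in every group. All genes share these libraries and their size factors. Tubb5, Pgrmc1 and Calm2 held 0.512, 0.426 and 0.456 reads per start position, Hnrnpab 0.331 and Fxyd6 0.174.

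Reads on genes ran from 7139633 to 13014004 per library, and the members took 0.0721% to 0.109% of them. Ezh2, the targeted gene, had 1354 to 1476 normalised reads in mKO and 1190 to 1678 in WT RGCs (log2 difference 0.087, SE 0.133, adjusted p = 0.637, limma), counted over the whole gene; without WT library C the difference was 0.25 and passed the threshold (adjusted p = 0.00419, limma, against up to 0.997 over the other alternatives). It was 0.13 in non-RGCs (adjusted p = 0.584, limma). By the study's methods, the floxed allele removes only the exons of an essential domain, and reads of these exons were not counted apart. The study reports reduced Ezh2 in mKO RGCs by qPCR and Western blot, and less of its histone mark by staining. It also reports a change in the level of Ezh2 in its RNA-seq of RGCs. The labelled fractions were checked on 12 RGC markers, whose summed level in RPKM was 674 to 693 in mKO and 877 to 907 in WT RGCs, 216 to 305 in mKO and 193 to 202 in WT non-RGCs; 10 of 12 were called lower in mKO RGCs and 8 of 12 higher in mKO non-RGCs. All 5 blood markers were called higher in mKO mice in both fractions, with a summed level of 30.3 to 36.0 against 11.6 to 14.0 in RGCs and 67.4 to 103 against 14.7 to 23.5 in non-RGCs. Photoreceptor markers stood at 130 to 141 in mKO and 147 to 199 in WT RGCs, with none of the defining markers on these lists at 0 in a whole group. The markers of the other lists were called lower in mKO RGCs for 4 of 8 photoreceptor, 4 of 7 amacrine and horizontal, 4 of 8 progenitor, 2 of 6 astrocyte and Müller, 1 of 6 endothelial and pericyte, 0 of 5 microglial and 3 of 3 kidney genes tested, and in mKO non-RGCs for 4 of 8, 3 of 7, 1 of 8, 1 of 6, 0 of 6, 0 of 4 and 3 of 3, with none called higher. These markers moved with the genotype in the same libraries as the members, and their part in the values of the members was not tested. In these bulk libraries, fewer cells of a type and less RNA per cell cannot be told apart.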

How the data were processed

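The submitters' processing notes name STAR 2.3.1z4, featureCounts and mm10; the authors normalised the counts with DESeq, and the deposited names say that primary alignments were kept and duplicates removed. The deposited signal of each group is the authors' mean of 3 libraries, in reads divided by size factors. The deposited p-values, adjusted p-values, ratios and log2 ratios are the authors' comparisons and were not used. Columns of per-sample values left unused numbered 0.

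The whole reads of each library were recovered from the 15 digits of these means, with exactly 1 solution for every gene with reads, and were checked on simulated means and with shifted steps. Library totals are reads on genes; the floor (3 reads) covers counting error only. Normalised reads were analysed as log2(value + 1) with limma 3.58.1 (R 4.3.3, mean-variance trend, Benjamini-Hochberg) where a gene's mean reached 10 in one group, and called at an adjusted p-value under 0.05; such fold changes understate low genes. The count test written into the design for counts was not run, because the deposited values are pooled signal. Limma on the recovered normalised reads was used in its place. The p-values measure the spread between these libraries, which are separate RNA extractions. Limma was tested on simulated data.

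The members, lists and tests were chosen with earlier results of these data known. Lists were the nuclear subunits of complexes I to V, genes of mitochondrial DNA and RNA handling, nuclear copies, and markers of RGCs, photoreceptors, amacrine and horizontal cells, progenitors, astrocytes and Müller cells, endothelium and pericytes, blood, microglia and kidney. Named genes were the members, other mitochondrial genes with a mean of at least 10, listed copies, the 3 largest called rises and falls per list and fraction, the 5 genes most like the members, and Ezh2; Eef2 was named after its values were seen. Positions, exon lengths, GC content and the 75-base windows came from GENCODE M21 on GRCm38, the assembly that mm10 names; a window had a copy where the same 75 bases occur in an annotated nuclear transcript, on either strand. Start positions per gene are 2 strands times (exon length + 75 - 1). Those without a nuclear copy are 2 strands times the windows without a copy. These windows lie wholly within the gene, so their number is smaller also where no copy was found. Alternatives were a pseudocount of 0.5, a mean of at least 50, no filter, CPM, median centring, a GC trend removed by lowess (share 0.3), the study's thresholds, each library left out, and the start-position scales. Python 3.11.15, numpy 2.4.6, pandas 2.3.3 and scipy 1.17.1 were used.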

Additional observations from a re-analysis of the deposited data

How the results depend on the processing

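No paired analysis was possible because the recovered libraries carry no replicate number. The median log2 difference of the 7 members (-0.46 in RGCs, -0.25 in non-RGCs) was -0.34 in RGCs with CPM, -1.08 and -0.60 with the GC trend removed, -0.56 and -0.49 with the cap on start positions inverted, -0.97 and -0.76 with the positions without a nuclear copy, and -0.20 in RGCs with undivided reads, the last 2 settings being chosen after seeing the data. With 1 library left out it ran from -0.50 to -0.43 in RGCs and from -0.41 to -0.073 in non-RGCs. The ratio of the highest to the lowest level was 1.32 in place of 2.72 with start positions without a copy. Over all genes, calls numbered 2622 higher and 3405 lower in RGCs and 641 and 985 in non-RGCs. With CPM, RGCs had 2238 lower, non-RGCs 1346 higher and 448 lower, and the difference between fractions 26 lower. With the GC trend removed there were 895 higher and 1491 lower in RGCs and 163 and 119 in non-RGCs. At the study's thresholds there were 1614 higher and 1001 lower in RGCs, 1362 higher in non-RGCs, and 512 higher and 320 lower for the difference between fractions; without a filter the last had 1 higher. With 1 library left out, the ranges were 1427 to 3730 higher and 2309 to 4454 lower in RGCs, 48 to 724 and 93 to 1130 in non-RGCs, and 0 to 190 and 7 to 47 for the difference between fractions, the 190 without mKO non-RGC library A and the 48 and 93 without mKO non-RGC library B. The nuclear subunits had 0 higher in RGCs with the GC trend removed, 0 higher and 12 lower at the study's thresholds and 1 higher in non-RGCs there, and with 1 library left out 0 to 2 higher and 46 to 60 lower in RGCs and 0 to 0 and 0 to 8 in non-RGCs. The genes of mitochondrial DNA and RNA handling had 4 higher and 0 lower in RGCs with the GC trend removed and also at the study's thresholds, 13 higher and 1 lower in non-RGCs with CPM, 0 and 0 there with the GC trend removed, and with 1 library left out 3 to 19 higher and 4 to 7 lower in RGCs and 0 to 7 and 0 to 3 in non-RGCs. The difference of Polrmt in RGCs, -0.49, was 0.039 with the GC trend removed. Of the calls of named nuclear genes, 20 of 32 in RGCs and 0 of 9 in non-RGCs held without each library in turn, and 15 in RGCs, beside Polrmt, and 9 in non-RGCs were lost with the GC trend removed. The cause was not tested for any of these. Low read numbers limit the transfer RNAs, of which 12 of 22 had 0 reads, and mt-Nd3 has only 6 windows without a nuclear copy.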
